A study of Mus musculus with 6 samples.

Results

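The fibrillar collagen genes *Col1a1*, *Col1a2*, *Col2a1*, *Col3a1*, *Col5a1*, *Col5a2*, *Col5a3*, *Col11a1*, *Col11a2* and *Col27a1* were followed in tail tendons of wild-type (WT) and Mkx-/- mice by bulk RNA-seq. The members were the rows of the deposited count table with these 10 gene symbols, out of 44788 symbols. The rule goes by gene name alone, and the family was chosen with earlier results of these data known. All 10 were among the 14550 genes with enough counts to be tested. Mkx (Mohawk) is a homeobox transcription factor of tendon, and the study used mice lacking it as a model of heterotopic ossification, the formation of bone inside tendon. There were 3 WT and 3 Mkx-/- libraries, all C57BL/6 and labelled as 3 weeks old, an age that differs from the one in the study's text. The Mkx-/- genotype is a knockout of the whole animal rather than of tendon alone. The labels do not say whether each library came from 1 animal or from a pool. The p-values below judge the difference between genotypes against the spread between these libraries, which may in part be technical. Bulk RNA-seq reads a whole tissue, so fewer cells of a type and less RNA per cell cannot be told apart.

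Fibrillar collagens are secreted as procollagens, chains with a long triple-helical part between propeptides, and assemble into the cross-striated fibrils that carry load in tendon. Type I collagen, built from the products of *Col1a1* and *Col1a2*, forms the bulk of the tendon fibril. Type V and type XI chains form the core on which fibrils nucleate and limit their diameter, type III collagen is common in thin, young or healing fibrils, and types II and XXVII are best known from cartilage.

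What these 10 genes share in sequence is shown by the exons that encode the helix, which consist of repeats of a glycine codon followed by a pair of other codons. In the GENCODE annotation of mm9, the build the authors aligned to, 272 of 587 exons (46.3%) in the longest transcripts of the members were exactly 54 bases long. In the other 22228 protein-coding genes this held for 884 of 204157 exons (0.433%). The first such exon that starts with a glycine codon and keeps this repeat throughout is given for the member with most counts, the called members with the largest rise and the largest fall, and *Col3a1*, with glycine codons in capitals. They lie at chr6:4465481-4465534 (exon 8), chr1:45382205-45382258 (exon 6), chr2:27820771-27820824 (exon 15) and chr17:34188425-34188478 (exon 13), all on the plus strand of mm9.
Col1a2: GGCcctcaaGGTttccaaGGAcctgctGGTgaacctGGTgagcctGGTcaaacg
Col3a1: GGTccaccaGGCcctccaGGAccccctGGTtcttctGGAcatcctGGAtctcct
Col5a1: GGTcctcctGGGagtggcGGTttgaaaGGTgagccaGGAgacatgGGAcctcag
Col11a2: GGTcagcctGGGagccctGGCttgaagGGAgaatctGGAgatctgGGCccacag
Each holds 6 glycine codons at the same spacing. The *Col5a1* and *Col11a2* exons were identical at 38 of 54 bases and the *Col1a2* and *Col5a1* exons at 25 of 54. The glycine pattern held in all 29 of the 54-base exons of *Col5a1* and all 31 of *Col11a2*, and in 23 of 24 in *Col1a2*. Despite this shared design, no run of 50 bases in the longest transcript of any member occurred in another member, and the longest identical run between members was 32 bases, in *Col5a1* and *Col5a3*.

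Promoters are printed for the same 4 genes, since they moved in different directions between the genotypes. RefSeq's table for GRCm38.p6 matched 7 of the 10 members, with *Col1a1*, *Col2a1* and *Col5a2* not matched. The 150 bases before the start site are shown, at chr6:4505468-4505617, chr1:45311388-45311537, chr2:27886275-27886424 and chr17:34038988-34039137 of GRCm38.p6, all on the plus strand. Capitals mark matches on either strand to the TATA box, spelled TATAAA, the CCAAT box, spelled by its name, the GC box, spelled GGGCGG, and the E-box, spelled CANNTG.
Col1a2: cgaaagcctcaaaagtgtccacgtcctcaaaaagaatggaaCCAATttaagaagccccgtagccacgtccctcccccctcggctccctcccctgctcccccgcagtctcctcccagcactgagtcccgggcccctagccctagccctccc
Col3a1: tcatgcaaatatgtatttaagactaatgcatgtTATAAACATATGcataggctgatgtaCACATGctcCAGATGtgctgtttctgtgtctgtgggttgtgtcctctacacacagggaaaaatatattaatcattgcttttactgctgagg
Col5a1: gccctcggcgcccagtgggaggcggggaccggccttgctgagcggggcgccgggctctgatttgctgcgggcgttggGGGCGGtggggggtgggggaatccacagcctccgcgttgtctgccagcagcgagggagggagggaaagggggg
Col11a2: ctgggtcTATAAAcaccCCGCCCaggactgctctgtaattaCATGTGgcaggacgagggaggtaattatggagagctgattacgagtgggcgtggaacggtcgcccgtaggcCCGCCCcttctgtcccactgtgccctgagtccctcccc
Over the 250 bases before the start, TATAAA was found in *Col3a1* and *Col11a2*, 2 of 7 members, and in 12.4% of 32851 promoters. The match began 117 bases before the start in *Col3a1* and 143 bases before it in *Col11a2*. GGGCGG was found in 6 of 7 members, all but *Col3a1*, and in 32.7% of promoters, and those of *Col1a2* lie further upstream than the bases printed. CCAAT was found in 3 of 7 members, *Col1a2*, *Col5a3* and *Col11a1*, and in 33.8% of promoters. CANNTG was found in 4 of 7 members and in 66.2% of promoters, and in *Col3a1* a match adjoins the TATAAA match. The 250 bases were 76.4% G and C in *Col5a1* and 35.2% in *Col3a1*, 2 genes that were both higher in Mkx-/- tendons, against a median of 52.4% over all promoters. These are matches of letters only.

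The libraries held 10835070 to 14160301 counts. *Mkx*, the targeted gene, had 1825, 1381 and 1685 counts in WT and 620, 589 and 491 counts in Mkx-/- libraries, so that reads on it remained. Replicates of a group differed by far more than counting noise, with chi-square per degree of freedom between 8.22 and 40.1, and WT replicate 1 stood apart from WT replicates 2 and 3. *Xist* lay between 110 and 147 normalized CPM in 5 libraries and was at 0.080 in WT replicate 3, and the Y-linked gene *Ddx3y* had 301 counts in that library and 0 in each of the others. WT replicate 3 thus differed in sex from the other 5 libraries. The 10 tendon markers summed to between 377382 and 520576 normalized CPM in WT and between 241222 and 335907 in Mkx-/- libraries, mostly through *Col1a1* and *Col1a2*, which are members. Of these 10, 3 were higher and 7 lower in Mkx-/- than in WT libraries (median log2 fold change -0.55). *Scx*, a transcription factor of tendon cells, had a log2 fold change of -1.14 (adjusted p = 0.106 in edgeR). *Tnmd*, a tendon membrane protein, was at -0.02 (adjusted p = 0.960 in edgeR). The 3 higher were *Thbs4* at 1.26, *Comp* at 0.88 and *Fmod* at 0.11 (adjusted p = 0.0118, 0.0598 and 0.800 in edgeR). The 7 lower included *Mkx* and the members *Col1a1* and *Col1a2*. Of 8 bone markers, *Bglap*, which marks osteoblasts, stayed under 1 CPM in each library. *Alpl*, the only 1 tested, lay between 0.55 and 1.84 CPM in WT and between 2.52 and 3.72 in Mkx-/- libraries (log2 fold change 1.58, adjusted p = 0.0722 in edgeR). Summed levels of other cell types moved with genotype: 15 skeletal muscle markers lay between 104 and 453 CPM in WT and between 613 and 3221 in Mkx-/- libraries, 8 Schwann cell markers between 8131 and 10755 and between 12626 and 23437, 10 endothelial markers between 70.9 and 89.3 and between 130 and 176, and 11 macrophage and leukocyte markers between 654 and 683 and between 421 and 475. The other sums were those of 8 bone markers (2.28 to 4.96 in WT, 4.14 to 5.67 in Mkx-/-), 6 skin markers (2.83 to 13.2, 22.7 to 27.98), 6 adipocyte markers (6.07 to 14.2, 24.6 to 63.0) and 6 pericyte and smooth muscle markers (326 to 393, 340 to 897). At an adjusted p under 0.05 in edgeR, 3 of 15 skeletal muscle, 2 of 10 endothelial, 1 of 5 skin and 1 of 2 adipocyte markers tested were higher. This held for 0 of 8 Schwann cell and 0 of 6 pericyte and smooth muscle markers, and 2 of 11 macrophage and leukocyte markers were lower. Over all genes, 3.18% were higher and 2.26% lower. The part of these cell types in the results below was not tested.

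The level of the members spanned over 4 orders of magnitude. Levels between genes are given as normalized CPM (counts scaled by TMM to a common library size) per kilobase of the longest transcript, and the plot of levels by library shows them. In WT tendons *Col1a2* came first at 48143 ± 5578 (SD, n = 3), followed by *Col1a1* at 31195 ± 8244. *Col3a1* at 828 ± 131 and *Col11a2* at 662 ± 135 came next, with overlapping libraries. *Col11a1* (169 ± 30.6), *Col2a1* (146 ± 51.1), *Col5a2* (108 ± 7.94) and *Col5a1* (88.2 ± 16.7) each overlapped their neighbour in this order. *Col5a3* at 52.7 ± 6.65 lay under these, and *Col27a1* was last at 1.41 ± 0.153.

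In Mkx-/- tendons the order of the minor chains was different. *Col1a2* at 23793 ± 4036 and *Col1a1* at 19456 ± 4916 were still first, now with overlapping libraries, and *Col3a1* came next at 1759 ± 26.0. *Col5a1*, which had been under *Col11a2*, *Col11a1*, *Col2a1* and *Col5a2* in WT, now led the minor chains after *Col3a1* at 394 ± 57.3, apart from its neighbours on either side. *Col11a2* was at 201 ± 61.9, between *Col5a2* at 257 ± 34.2 and *Col11a1* at 142 ± 38.3, whose libraries overlapped with it. *Col2a1* (138 ± 43.0), *Col5a3* (61.1 ± 10.8) and *Col27a1* (2.30 ± 0.703) closed the order.

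**Figure D1:**
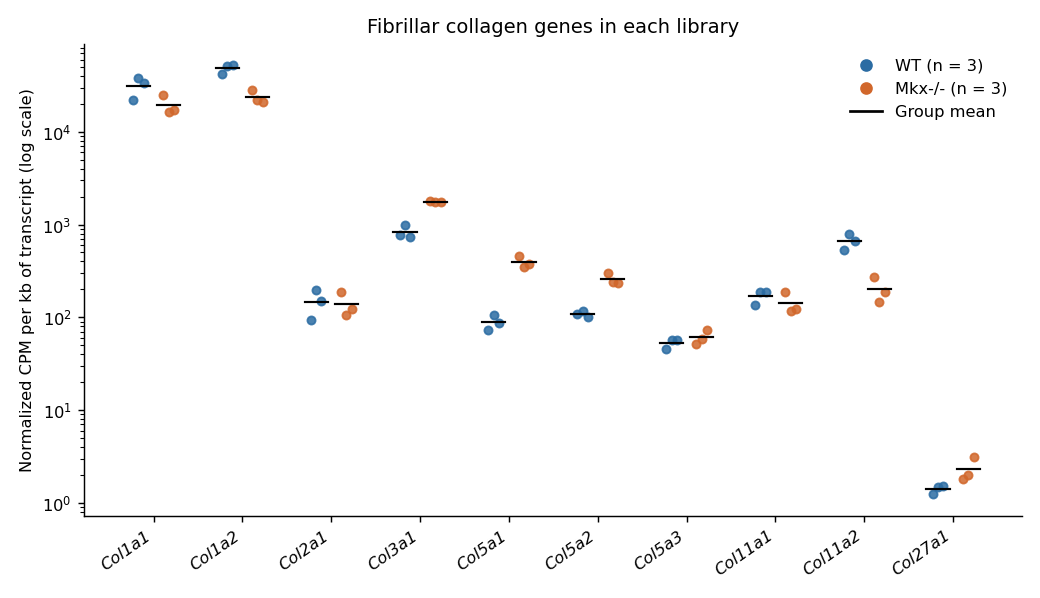
Normalized CPM per kilobase of transcript (log axis) of the 10 fibrillar collagen genes in each of 3 WT (blue) and 3 Mkx-/- (orange) libraries, with bars at the group means. *Col3a1*, *Col5a1* and *Col5a2* lie higher and *Col1a2* and *Col11a2* lower in the Mkx-/- libraries, without overlap.

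Of the 10 members, 3 were upregulated (*Col3a1*, *Col5a1* and *Col5a2*) and 1 was downregulated (*Col11a2*) in Mkx-/- tendons in edgeR's quasi-likelihood test, with calls made at an adjusted p under 0.05 where the log2 fold change also passed 1 or -1. Over all genes tested, 1.89% were upregulated, 1.33% downregulated and 3.22% either, by the same thresholds. The Mkx-/- libraries lay wholly above the WT libraries in 4 members, which added *Col27a1*, against 14.6% of all genes, and wholly below them in 2, *Col1a2* and *Col11a2*, against 13.6%, or 6 members against 28.2% in either direction. The direction was split evenly, with 5 members higher and 5 lower, and the median log2 fold change was 0.064 against -0.0037 over all genes. DESeq2, the tool of the study's methods, called 5 members with these thresholds, the same 4 and *Col1a2*, where it called 4.55% of all genes.

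**Figure D2:**
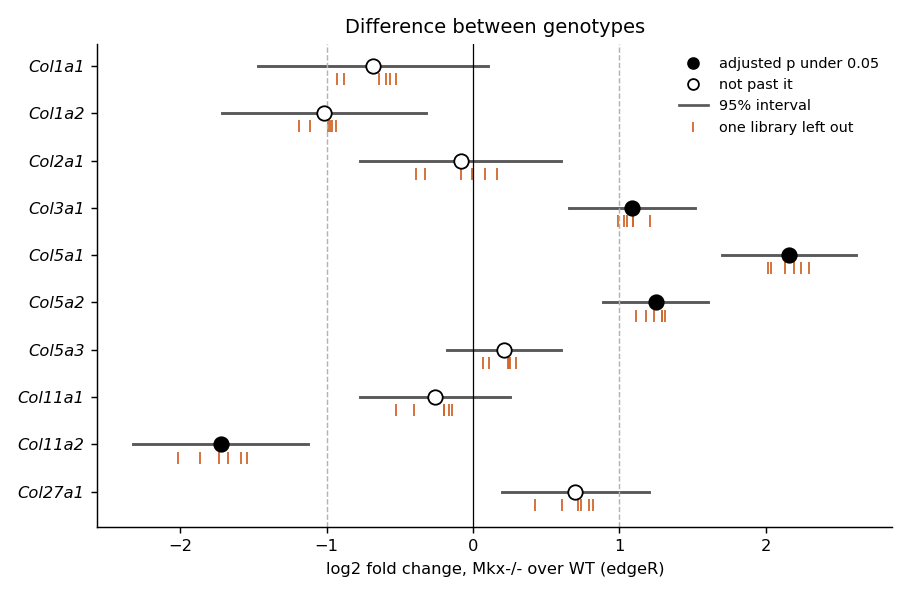
Log2 fold change of Mkx-/- over WT for each member in edgeR's fit of 14550 genes, with 95% intervals and, as orange ticks, the value with each library left out in turn. Filled circles are past an adjusted p under 0.05, dashed lines mark log2 fold changes of -1 and 1, and the intervals of *Col3a1*, *Col5a1*, *Col5a2* and *Col11a2* do not reach 0 (nor do those of *Col1a2* and *Col27a1*, whose adjusted p is above 0.05).

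Both type I chains had lower means in Mkx-/- tendons, and neither passed edgeR's test. *Col1a2* (chr6:4454814-4491543, plus strand, mm9) encodes the α2 chain and had 223183, 271309 and 277776 normalized CPM in WT and 151947, 117562 and 112155 in Mkx-/- libraries. The highest Mkx-/- library lay under the lowest WT library. The log2 fold change was -1.02 (standard error 0.31, 95% interval -1.71 to -0.32, adjusted p = 0.0933 in edgeR), and DESeq2 gave the same size with an adjusted p of 5.71e-07. *Col1a1* (chr11:94797538-94814356, plus strand), which encodes the α1 chain and is mutated with *Col1a2* in brittle bone disease, overlaps the record Gm17329 and had 130611, 225316 and 199024 normalized CPM in WT and 148930, 96267 and 100921 in Mkx-/- libraries. WT replicate 1 was under Mkx-/- replicate 1, so the groups overlapped. Its log2 fold change was -0.68 (standard error 0.34, 95% interval -1.47 to 0.10, adjusted p = 0.287 in edgeR and 0.0491 in DESeq2).

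*Col3a1*, which encodes the single chain of type III collagen, was 2.12-fold higher in Mkx-/- tendons. The WT libraries had 4268, 5442 and 4109 normalized CPM and the Mkx-/- libraries 9952, 9731 and 9680, so that the Mkx-/- libraries varied by 1.48% (coefficient of variation) and the WT libraries by 15.8%. The gene lies at chr1:45368383-45406551 on the plus strand. The 95% interval of the fold change was 1.58 to 2.86, at 1.09 on the log2 scale (standard error 0.19, adjusted p = 0.0173 in edgeR). The call did not hold without certain libraries: leaving out WT replicate 3 gave an adjusted p of 0.0982, and leaving out Mkx-/- replicate 2 or 3 gave 0.0544 or 0.0513, at log2 fold changes of 0.99, 1.09 and 1.10.

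Among type V chains, *Col5a1* and *Col5a2* rose and *Col5a3* did not pass the test. *Col5a1* (chr2:27741945-27895034, plus strand) encodes the α1 chain, whose loss of 1 copy causes classic Ehlers-Danlos syndrome, a disorder of lax skin and joints. It had 609, 888 and 728 normalized CPM in WT and 3858, 2941 and 3142 in Mkx-/- libraries. The lowest Mkx-/- library was over 3 times the highest WT library. The fold change was 4.47 (95% interval 3.25 to 6.15), the largest in either direction among the 10 members, at 2.16 on the log2 scale (standard error 0.20, adjusted p = 0.00141 in edgeR). Over the 15 alternatives run it stayed between 2.01 and 2.42 and past the thresholds. The gene overlaps the non-coding records 2810430I11Rik and Gm13372 on the other strand, and how the counting treated strand is not given in the sources used here.

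*Col5a2* encodes the α2 chain and lies on the minus strand at chr1:45431166-45560127, beside *Col3a1*. It had 711, 774 and 669 normalized CPM in WT and 1967, 1595 and 1556 in Mkx-/- libraries. The groups were far apart against their spread. The fold change was 2.38 (95% interval 1.85 to 3.05, log2 fold change 1.25, standard error 0.16, adjusted p = 0.00445 in edgeR), and the call held in each of the 15 alternatives. *Col5a3* (chr9:20574494-20619511, minus strand), which encodes the α3 chain and overlaps a 7SK record, had 276, 347 and 345 normalized CPM in WT and 315, 360 and 445 in Mkx-/- libraries. These overlapped, with a log2 fold change of 0.21 (95% interval -0.17 to 0.60, adjusted p = 0.508 in edgeR).

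Of the type XI chains, *Col11a2* fell and *Col11a1* did not pass the test. *Col11a2* (chr17:34176382-34203630, plus strand), the α2 chain, had 3175, 4802 and 4038 normalized CPM in WT and 1624, 891 and 1125 in Mkx-/- libraries. The highest Mkx-/- library was about as far under the lowest WT library as the WT libraries were from each other. The gene fell by 1.72 on the log2 scale (standard error 0.26, 95% interval -2.32 to -1.12, adjusted p = 0.0107 in edgeR), 3.30-fold lower, and was the member with the largest fall. Over the 15 alternatives its log2 fold change lay between -2.01 and -1.47 and stayed past the thresholds. *Col11a1* (chr3:113733458-113923636, plus strand), the α1 chain, which like *Col11a2* is mutated in Stickler syndrome, had 1029, 1430 and 1439 normalized CPM in WT and 1423, 898 and 934 in Mkx-/- libraries. Its log2 fold change was -0.26 (95% interval -0.77 to 0.26, adjusted p = 0.544 in edgeR), with overlapping groups.

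*Col2a1*, the type II collagen of cartilage (chr15:97806033-97835155, minus strand), had 475, 995 and 769 normalized CPM in WT and 953, 536 and 624 in Mkx-/- libraries. The ranges nearly coincided. Its log2 fold change of -0.08 (95% interval -0.77 to 0.60, adjusted p = 0.905 in edgeR) had no stable sign, at 0.16 without WT replicate 2, 0.080 without Mkx-/- replicate 2, and 0.18 with scaling by library size alone, a scaling that moves the median of all genes to 0.25. Of the 11 cartilage and disc markers in the table, *Col2a1* was the most abundant, and their summed level lay between 546 and 1079 CPM in WT and between 820 and 1323 in Mkx-/- libraries. *Matn1*, which marks mature cartilage, had 0 counts in all 6 libraries. Of the 9 that were tested, 7 were higher, and 3 passed an adjusted p under 0.05 as higher, against 3.18% of all genes. These 3 were *Acan*, *Matn3* and *Ucma*, named after their values were seen. They had log2 fold changes of 2.20, 1.45 and 3.47 (adjusted p = 0.00380, 0.00181 and 0.000158 in edgeR). Besides *Col2a1*, *Hapln1* was lower, at -0.22 (adjusted p = 0.737 in edgeR). The part of *Acan*, *Matn3* and *Ucma* in the levels of *Col2a1*, *Col11a1* and *Col11a2* was not tested.

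*Col27a1*, a member of the family known from cartilage (chr4:62875038-62996025, plus strand, hosting Mir455), was scarce, with 120, 115 and 145 counts in WT and 149, 217 and 298 counts in Mkx-/- libraries. On the normalized scale these were 9.44, 11.3 and 11.6 CPM and 13.6, 15.2 and 23.6 CPM. The Mkx-/- libraries lay above the WT libraries, and replicate 3 lay well above the other Mkx-/- libraries. The log2 fold change of 0.70 (95% interval 0.20 to 1.21, adjusted p = 0.105 in edgeR) did not pass the test. *Col24a1*, the remaining fibrillar collagen gene and no member, was scarcer still, with 4.03 ± 0.516 normalized CPM in WT against 7.09 ± 1.64 in Mkx-/- tendons (SD, n = 3), a log2 fold change of 0.80 and an adjusted p of 0.0843 in edgeR.

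Many members were high or low in the same library. In WT, replicate 1 had the lowest normalized CPM of *Col1a1*, *Col1a2*, *Col2a1*, *Col5a1*, *Col5a3*, *Col11a1*, *Col11a2* and *Col27a1*. In Mkx-/-, replicate 1 had the highest of *Col1a1*, *Col1a2*, *Col2a1*, *Col3a1*, *Col5a1*, *Col5a2*, *Col11a1* and *Col11a2*. Without WT replicate 1, the library that stood apart, the log2 fold changes were -0.88 for *Col1a1*, -1.11 for *Col1a2*, 1.03 for *Col3a1*, 2.03 for *Col5a1*, 1.24 for *Col5a2* and -1.87 for *Col11a2*, and the last 4 kept adjusted p between 0.00140 and 0.0264 in edgeR. Without WT replicate 3, the library that differed in sex, *Col5a1*, *Col5a2* and *Col11a2* had log2 fold changes of 2.13, 1.18 and -1.73 (adjusted p = 0.0153, 0.0399 and 0.0467 in edgeR), and *Col3a1* lost its call as given above.

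Together the 10 members took 36.6%, 44.2% and 43.2% of all counts in WT replicates 1 to 3, against 32.4%, 26.1% and 26.3% in Mkx-/- replicates 1 to 3. Each Mkx-/- library was under each WT library. The means were 41.3% ± 4.13 and 28.3% ± 3.59 (SD, n = 3), a difference of -13.1 percentage points (two-sided exact permutation test, p = 0.1, the smallest p that 3 against 3 allows). Type I chains made up nearly all of this, with 40.2% ± 4.05 in WT and 26.3% ± 3.54 in Mkx-/- libraries. Type V chains took 0.163% ± 0.0102 and 0.587% ± 0.0335, higher in the Mkx-/- libraries, and type XI chains 0.482% ± 0.0584 and 0.248% ± 0.0540 (exact permutation p = 0.1 for each). A share also depends on what else is in the library, the muscle and Schwann cell markers given above included. Leaving the 15 muscle markers out of the total gave a difference of -13.04 points. They summed to at most 3221 normalized CPM in a library, so this could move the share only little. The Schwann cell markers were not left out, so the part of other tissue in the share was not tested. Leaving out *Sparc* gave -14.5 points.

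Within the fibrillar pool itself, the Mkx-/- libraries held a smaller part of type I and larger parts of types III and V. As a percentage of counts per kilobase over the 10 genes, type I made up 97.5% ± 0.227 in WT and 93.5% ± 0.684 in Mkx-/- libraries (SD, n = 3). Type III was 1.03% ± 0.168 in WT and 3.89% ± 0.642 in Mkx-/- libraries, type V was 0.309% ± 0.0322 and 1.56% ± 0.1252, and type XI was 1.02% ± 0.0504 and 0.733% ± 0.0795. The genotypes did not overlap in any of these, and the exact permutation p was 0.1 for each. Type II was 0.176% ± 0.0361 and 0.295% ± 0.0364, and type XXVII stayed under 0.01%. The percentages sum to 100, so a fall in type I alone would raise the others. In WT the pool held about 3 times as much type XI as type V, and in Mkx-/- about 2 times as much type V as type XI.

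**Figure D3:**
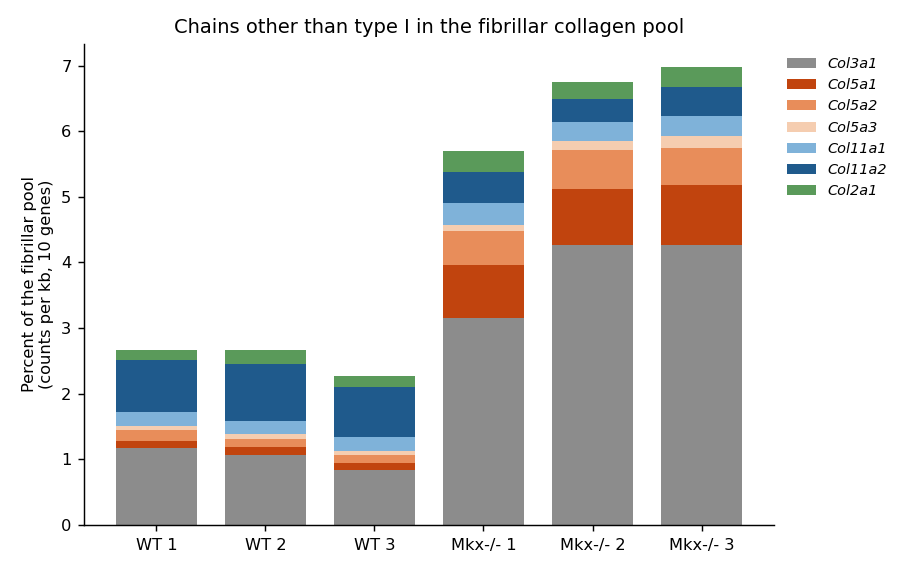
Percentage of the fibrillar collagen pool (counts per kilobase over the 10 genes) taken by chains other than type I in each library. *Col27a1* is too small to draw, and type I fills the rest up to 100%. The stacks of the 3 Mkx-/- libraries are more than 2 times those of the WT libraries, mostly through *Col3a1*, *Col5a1* and *Col5a2*, while the *Col11a2* segment is smaller.

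Ratios of chains within a library do not depend on how libraries are scaled to each other. In 11 of the 12 ratios computed, the genotypes did not overlap, each with an exact permutation p of 0.1 (two-sided, the smallest possible, 0.109 after Benjamini-Hochberg adjustment over the 12). The exception was *Col1a1*/*Col1a2*, at 0.528, 0.749 and 0.646 per kilobase in WT and 0.884, 0.738 and 0.811 in Mkx-/- libraries (p = 0.2 by the exact permutation test). WT replicate 2 lay above Mkx-/- replicate 2 there. Most of the 12 ratios contain *Col1a1*, so they are not independent of each other. Of all single genes tested, 28.2% did not overlap, and the share over ratios of other genes was not computed. These are ratios of RNA, and the chains of the protein were not measured.

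The largest difference among the ratios was that of *Col5a1*/*Col1a1*. It was 0.00329, 0.00278 and 0.00258 in WT and 0.0183, 0.0216 and 0.0220 in Mkx-/- libraries, 7.16-fold higher. *Col5a2*/*Col1a1* was 3.77-fold higher and *Col3a1*/*Col1a1* 3.41-fold higher, the latter at 0.0348, 0.0257 and 0.0220 in WT and 0.0712, 0.108 and 0.102 in Mkx-/- libraries. Within type V, *Col5a1*/*Col5a2* was 0.675, 0.904 and 0.857 in WT and 1.55, 1.45 and 1.59 in Mkx-/- libraries. Per kilobase, the α1 message was thus under the α2 message in each WT library and over it in each Mkx-/- library. The order within WT depends on the transcript lengths used. In counts, *Col5a1* and *Col5a2* had 7739 and 9039, 9062 and 7899, and 9106 and 8372 in WT replicates 1 to 3. *Col5a3*/*Col5a1* differed the other way, at 0.622, 0.537 and 0.651 in WT and 0.112, 0.168 and 0.195 in Mkx-/- libraries.

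Within type XI, *Col11a1*/*Col11a2* was 0.256, 0.235 and 0.281 in WT and 0.691, 0.795 and 0.655 in Mkx-/- libraries, 2.77-fold higher. Relative to type I, *Col11a2*/*Col1a1* was 2.11-fold lower and *Col11a1*/*Col1a1* 1.32-fold higher in Mkx-/- libraries. The α1 chains of types XI and V can share a molecule, and *Col11a1*/*Col5a1* was 1.85, 1.77 and 2.17 in WT and 0.405, 0.335 and 0.326 in Mkx-/- libraries, 5.44-fold lower. *Col2a1*/*Col1a1* and *Col27a1*/*Col1a1* were 1.53-fold and 2.52-fold higher. *Col11a1* and *Col2a1* were not higher themselves, at log2 fold changes of -0.26 and -0.08. *Col1a1*, the denominator, was at -0.68 (adjusted p = 0.544, 0.905 and 0.287 in edgeR). Leaving out 1 library cannot reverse a ratio whose genotypes do not overlap. In *Col1a1*/*Col1a2*, which overlapped, the log2 difference stayed between 0.22 and 0.47 with each library left out in turn.

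**Figure D4:**
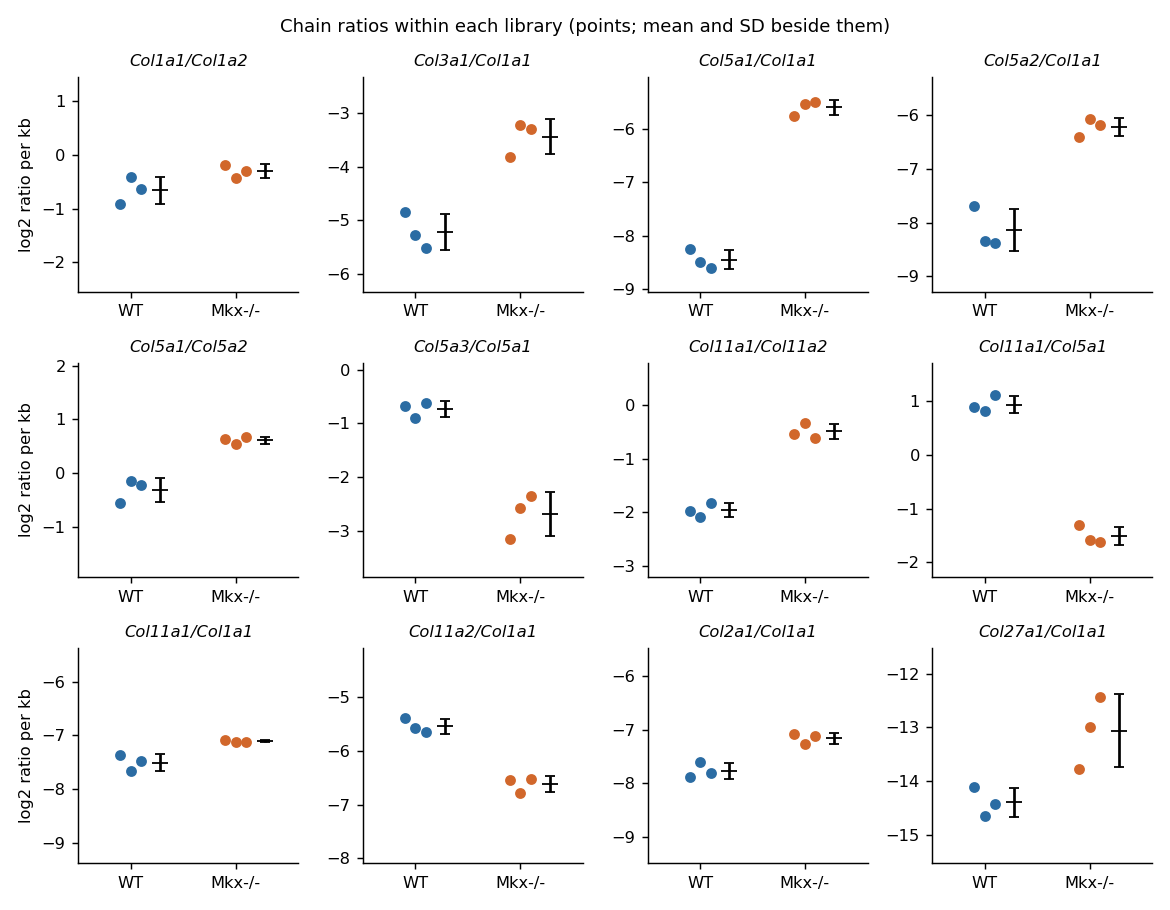
Log2 ratio of 2 chains (counts per kilobase) within each of 3 WT (blue) and 3 Mkx-/- (orange) libraries, with mean and SD beside the points, for 12 pairs of chains. Each panel spans the same number of log2 units, and only *Col1a1*/*Col1a2* overlaps between the genotypes.

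Genes that modify, export, cut, cross-link, coat, bind or regulate fibrillar collagens were read from the same edgeR fit, in lists that hold no member. They are counted here at an adjusted p under 0.05, which 3.18% of all genes passed as higher and 2.26% as lower. In DESeq2, 787 of the 14550 genes were higher and 588 lower at that threshold. An unadjusted p under 0.05 in edgeR was reached by 22.6% of all genes, in either direction. The small leucine-rich proteoglycans, which coat fibrils and set their spacing and diameter, had 6 of 12 higher and 0 lower (7 and 0 in DESeq2, 8 and 1 at an unadjusted p under 0.05 in edgeR), with a median log2 fold change of 0.80 against -0.0037 over all genes. *Bgn* (biglycan) had 962, 1266 and 1007 normalized CPM in WT and 5165, 4349 and 4767 in Mkx-/- libraries, 2.14 higher on the log2 scale (standard error 0.18, adjusted p = 0.00115 in edgeR). *Prelp* rose by 2.48, *Podn* by 1.59 and *Aspn* by 0.96 (adjusted p = 0.00645, 0.0134 and 0.0140 in edgeR). Leaving out WT replicate 2 or 3 left a count of 1 or 2, leaving out Mkx-/- replicate 2 left 3, and *Bgn* kept its call without each library in turn. The FACIT collagens, which sit on the fibril surface, had 0 of 7 past the test in edgeR. DESeq2 had 1, edgeR without WT replicate 1 had 1, and 3 reached an unadjusted p under 0.05 in edgeR. Log2 fold changes were 2.36 in *Col22a1*, 0.43 in *Col14a1*, 0.88 in *Col9a2* and 0.71 in *Col9a3* (adjusted p = 0.0898, 0.106, 0.108 and 0.406 in edgeR). *Col12a1*, *Col16a1* and *Col20a1* were at -0.11, -0.03 and -0.22 (adjusted p = 0.783, 0.960 and 0.721 in edgeR). *Col22a1* was scarce, at 1.73, 0.29 and 0.56 CPM in WT and 2.19, 8.63 and 2.77 in Mkx-/- libraries.

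Enzymes that hydroxylate and glycosylate procollagen in the endoplasmic reticulum had 2 of 15 higher and 1 lower. *Plod2*, the lysyl hydroxylase of the telopeptides, had 8.57, 8.91 and 8.24 normalized CPM in WT and 88.3, 51.5 and 82.1 in Mkx-/- libraries. Each Mkx-/- library was over 5 times each WT library, and the log2 fold change was 3.11 (standard error 0.22, adjusted p = 0.000476 in edgeR). *P4ha2*, a subunit of prolyl 4-hydroxylase, rose by 1.31 (adjusted p = 0.0199, and 0.0799 without WT replicate 3 or 0.0593 without Mkx-/- replicate 3), while *P4ha3* had a log2 fold change of 1.32 and an adjusted p of 0.0820 in edgeR. *Leprel1*, a prolyl 3-hydroxylase, fell by 1.40 on the log2 scale (adjusted p = 0.00307 in edgeR). Of 11 chaperones and export factors, 0 passed edgeR's test, with 1 higher and 3 lower at an unadjusted p under 0.05, 3 lower in DESeq2, and 2 lower in edgeR without WT replicate 1. Their median log2 fold change was -0.22. *Mia3*, which loads procollagen into transport carriers, had a log2 fold change of -0.63 (adjusted p = 0.0502), *Creb3l1* of -0.66 (0.0800), *Sparc*, a collagen-binding chaperone, of -0.76 (0.0994) and *Tmem38b* of 0.49 (0.168), all adjusted p from edgeR.

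Genes for maturation outside the cell moved both ways. *Adamts2*, the main procollagen N-proteinase, had 1378, 1744 and 1849 normalized CPM in WT and 737, 629 and 672 in Mkx-/- libraries, and fell by 1.29 on the log2 scale (standard error 0.16, adjusted p = 0.00462 in edgeR). Its relative *Adamts3* rose by 0.85 (adjusted p = 0.0342 in edgeR), a call that was lost when any library but WT replicate 1 was left out, with adjusted p up to 0.111 without WT replicate 2. *Adamts14* had a log2 fold change of 0.99 (adjusted p = 0.0734) and *Pcolce2* of -0.13 (adjusted p = 0.70 in edgeR), and 1 of 7 tested genes of this list was higher and 1 lower. Of 5 lysyl oxidases, which cross-link fibrils, *Lox* fell from 3888 ± 665 to 1467 ± 321 CPM (SD, n = 3, log2 fold change -1.41, adjusted p = 0.0122) and *Loxl1* rose by 1.12 (adjusted p = 0.0151 in edgeR). Without WT replicate 3 neither passed, at adjusted p of 0.0556 and 0.0761 in edgeR. *Loxl2* and *Loxl4* had log2 fold changes of -0.94 and -0.34 (adjusted p = 0.140 and 0.359 in edgeR).

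Receptors for fibrillar collagen had 1 of 7 higher and 1 lower. *Itga2*, an integrin subunit that binds type I collagen, had 39.9, 34.9 and 38.7 normalized CPM in WT and 12.98, 7.85 and 6.96 in Mkx-/- libraries, and fell by 2.04 on the log2 scale (standard error 0.22, adjusted p = 0.00271 in edgeR). *Itga11*, its counterpart in fibroblasts, rose by 0.95 (adjusted p = 0.0115, and 0.0546 without WT replicate 2 or 0.0603 without WT replicate 3 in edgeR). *Ddr2* had a log2 fold change of -0.43 and *Itga10* of 0.76 (adjusted p = 0.103 and 0.174 in edgeR). Among 6 collagenases and turnover genes, *Mmp2*, a gelatinase, rose by 1.12 (adjusted p = 0.00380 in edgeR) and 0 were lower in edgeR, at an unadjusted p under 0.05 too, and in DESeq2. *Ctsk*, *Mrc2* and *Mmp14* had log2 fold changes of 0.33, -0.29 and 0.24 (adjusted p = 0.135, 0.362 and 0.383 in edgeR).

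Of 17 transcription factors known to act on fibrillar collagen genes, *Mkx* itself was the only one past edgeR's test, from 138 ± 4.91 to 45.6 ± 9.67 CPM (SD, n = 3, log2 fold change -1.60, adjusted p = 0.00183). *Runx2*, the master factor of osteoblasts, had a log2 fold change of 1.49, *Egr1* of -1.13 and *Egr2* of 0.98 (adjusted p = 0.0734, 0.0772 and 0.0823 in edgeR). In DESeq2, 2 genes of this list were higher and 4 lower, where 787 and 588 of all 14550 genes were. At an unadjusted p under 0.05 in edgeR 3 were higher and 5 lower, against 22.6% of all genes in either direction. *Runx2* rested on a level under 3 CPM in each library.

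**Figure D5:**
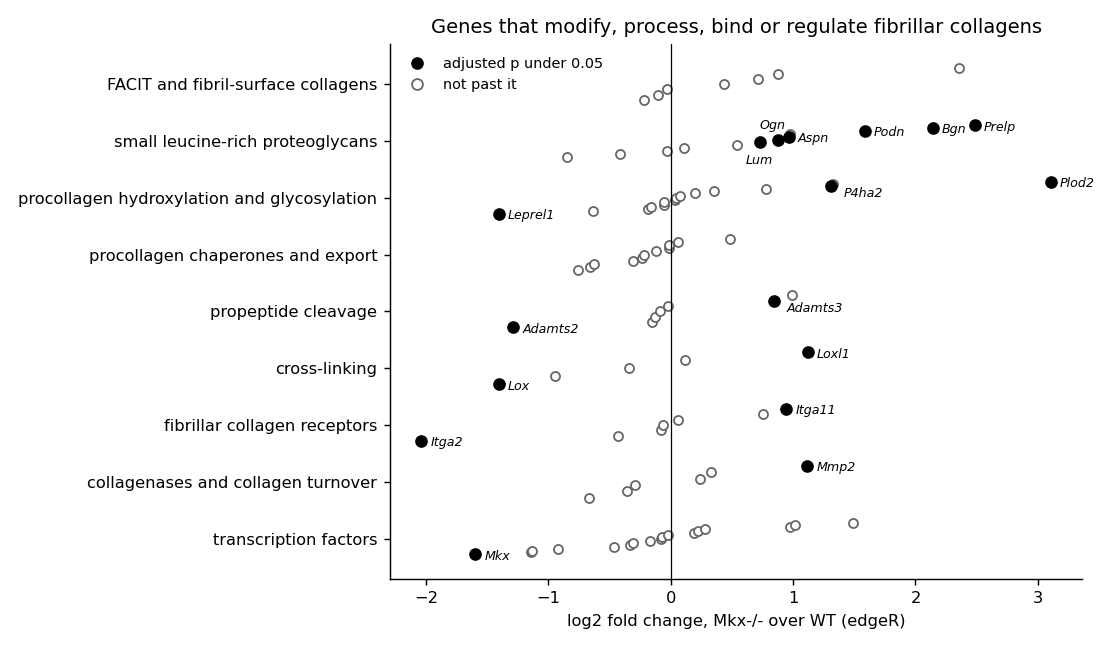
Log2 fold change of Mkx-/- over WT in edgeR's fit for the tested genes of 9 lists that modify, process, bind or regulate fibrillar collagens. Filled and named points are past an adjusted p under 0.05, 6 of 12 small leucine-rich proteoglycans among them, and open points are not.

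Genes whose normalized level followed a member most closely over the 6 libraries were sought among 5396 genes whose mean level reached 20 CPM. The measure was Pearson's r of log2 CPM, which the difference between the genotypes enters, and which is given as a description. The highest of 5396 values over 6 libraries are high through the search itself, and a link between the genes was not tested. For *Col5a1* they were *Bgn* (0.997), *Ucma* (0.995), *Pamr1* (0.995), *Flnc* (0.994) and *Hsd3b7* (0.994), of which *Ucma* had the largest log2 fold change at 3.47. For *Col11a2* they were *Ndufa4l2* (0.997), *Cpz* (0.992), *Cog1* (0.991), *Fech* (0.988) and *Athl1* (0.987), with log2 fold changes between -1.16 in *Cpz* and -0.32 in *Fech*. For *Col1a1* they were *Hdlbp* (0.993), *Phyhip* (0.992), *Fto* (0.988), *Nfia* (0.987) and *H13* (0.983), none of which is a collagen gene.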

How the data were processed

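Total RNA of tail tendons from 3 WT and 3 Mkx-/- libraries was sequenced by the authors on the Ion Proton system. After trimming adaptors and dropping reads of poor quality, the authors aligned the rest to mm9 with MapSplice and deposited raw counts, that is, unnormalized read numbers for each gene symbol. The counting program, its annotation and its treatment of strand are not given in the sources used here.

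From the deposited counts, genes were filtered with filterByExpr (14550 of 44788 left), scaled by TMM and tested with edgeR 4.0.16 in R 4.3.3 (quasi-likelihood, genotype only, robust = FALSE, Benjamini-Hochberg adjustment over all genes tested). Printed CPM and fold changes come from this scaling. DESeq2 1.42.0, the tool of the study's methods, was an alternative, with RLE, upper-quartile and library-size scaling, library size without *Col1a1*, *Col1a2* and *Sparc*, filters of at least 1 count in any library or 10 in every library, a robust fit, a block for the replicate number, and leaving out every library in turn. Ratios and shares were compared by two-sided exact permutation tests. The script was tested on simulated data. Coordinates and transcript lengths come from GENCODE M1 on mm9.

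The text names the 10 members, *Mkx*, *Col24a1*, at most the 4 genes of each companion list with the smallest p, marker lists as sums, and for *Col1a1*, *Col5a1* and *Col11a2* the 5 genes most like them. *Tnmd*, *Scx*, *Thbs4*, *Comp*, *Fmod*, *Bglap*, *Alpl*, *Xist* and *Ddx3y* were named beyond that rule after their values were seen. So were *Acan*, *Matn3*, *Ucma*, *Hapln1*, *Matn1*, *Col12a1*, *Col16a1* and *Col20a1*. Members and lists were chosen with earlier results of these data known. The depth of 10835070 to 14160301 counts leaves counting error small beside the spread between libraries for all members but *Col27a1*.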

Additional observations from a re-analysis of the deposited data

How the results depend on the processing

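*Col5a1*, *Col5a2* and *Col11a2* kept their calls under the 15 alternatives run. Each ratio had 8 alternatives and the share of counts 9. A replicate block leaves their values as they are, and transcript lengths cancel in the difference of log2 ratios. Leaving out 1 library cannot reverse groups that do not overlap. So the direction could change only in *Col1a1*/*Col1a2* with a library left out, and in the share with another total. It did in neither. *Col1a2* passed an adjusted p of 0.05 under DESeq2 (-1.02), library-size scaling (-0.77), the filter of 1 count (-1.01) and the robust fit (-1.02), and *Col1a1* under DESeq2 (-0.69). So the members lower past both thresholds were 2 under DESeq2, the filter of 1 count and the robust fit. *Col27a1* passed under library-size scaling (0.97) and the filter of 1 count (0.71). *Col2a1* changed sign under library-size scaling (0.18), without WT replicate 2 (0.16) and without Mkx-/- replicate 2 (0.080), with a range of -0.39 to 0.16 over the left-out libraries, and *Col3a1* ranged from 0.99 to 1.21 there. The causes were not tested.

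Over all genes, edgeR had 275 higher and 193 lower past both thresholds, and 463 and 329 at an adjusted p under 0.05 alone. Library-size scaling, which moved the median log2 fold change of all genes to 0.25, gave 704 and 154, and 1348 and 197. The filter of 1 count gave 541 and 322, and 970 and 594, and DESeq2 gave 384 and 278, and 787 and 588. Leaving out each library gave 103 to 321 higher and 112 to 248 lower past both thresholds, and 117 to 539 and 127 to 439 at the adjusted p alone, with the fewest in each without WT replicate 3.

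No paired design is stated. The deviations of same-numbered libraries from their group means correlated at 0.026, -0.21 and 0.30, and those of differently numbered libraries between -0.39 and 0.40. With 3 libraries per group, these values cannot settle whether the replicate numbers pair the libraries. With the replicate number as a block, 264 genes were higher and 170 lower at an adjusted p under 0.05, *Col3a1* had a log2 fold change of 1.10 (adjusted p = 0.0674 in edgeR), and no other member changed its call. With 3 libraries per group, the exact permutation tests of ratios and shares cannot give a p under 0.1.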
